A study of Mus musculus with 4 samples.

Results

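The 10 transcripts described here were those most enriched with NONO in untreated mouse primary hepatocytes. They were selected on measured values, as the 10 largest differences between the control NONO IP and the control input on the log2(FPKM + 1) scale. FPKM counts fragments per kilobase, adjusted for the depth of the library, and the 1 added before the logarithm shrinks the differences of scarce transcripts. Candidates had a mean of at least 5 FPKM over all libraries and a value above 0 in both control libraries, which left 8467 of 21163 listed transcripts, called the tested transcripts below. The rule returned ENSMUST00000038863, ENSMUST00000179797, ENSMUST00000166098, ENSMUST00000081896, ENSMUST00000089129, ENSMUST00000095049, ENSMUST00000216807, ENSMUST00000168033, ENSMUST00000090848 and ENSMUST00000033611, in that order. The control enrichment of these transcripts is therefore a description and carries no test.

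NONO is an RNA-binding protein of the DBHS family and, with SFPQ, a core component of paraspeckles. Paraspeckles are nuclear bodies that assemble on the long non-coding RNA Neat1, and they are known to hold certain RNAs in the nucleus and away from translation. In RNA immunoprecipitation (RIP) an antibody pulls a protein down with the RNA attached to it, and an RNA that stands higher in the pull-down than in the starting lysate, the input, is called enriched.

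The study asked whether proline alters the mRNAs held with NONO, which the series' design takes as a surrogate for paraspeckles. Hepatocytes isolated from mouse liver were cultured without proline (control) or with it, and from each culture a lysate input and an IP were sequenced, giving 4 groups of 1 library. All groups share the tissue and the cell type, and no genotype, strain, age, dose or treatment time is given in the sources used here. No mock IP was analysed here, so binding of RNA to beads or to an unrelated antibody is not subtracted from any value. With 1 library a group there is no replicate spread, no test could be run, and each difference compares libraries and not conditions.

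The tables give transcript identifiers without gene names, and 0 of the 10 could be named through the RefSeq gene table, in which 0 of 49997 genes carry an Ensembl identifier. The roles of these 10 RNAs, their place in the genome and their sequences are therefore not described. The hepatocyte markers, the markers of other liver cells and the paraspeckle list, Neat1 included, could not be looked up for the same reason. Read numbers were recovered from the steps in the FPKM values. The inputs held 22188003 reads in control and 20826758 in proline, and the IPs held 1786928 and 954824. The proline IP was thus 21.8 times shallower than its input, and the control IP 12.4 times shallower. All 95% intervals below come from these reads and cover counting error only, with PCR copies and variation between cultures outside them.

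Every one of the 10 transcripts had reads in all 4 libraries, the fewest being 20. Together they made up 0.0398% of reads in the control input (exact binomial 95% interval 0.0390% to 0.0407%) and 9.47% in the control IP (9.43% to 9.51%). In proline they made up 0.0655% of input reads (0.0644% to 0.0666%) and 18.5% of IP reads (18.5% to 18.6%). Most of that share belonged to ENSMUST00000038863, which held 86.5% of the 10 transcripts' IP reads in control and 93.6% in proline. The other 9 held 1.28% of all control IP reads and 1.19% of all proline IP reads. These totals include the reads of ENSMUST00000038863, which took 8.19% and 17.4% of them. The lower proline share of the other 9 is therefore not read as a loss. The higher combined share in the proline IP lay with ENSMUST00000038863 alone.

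**Figure D1:**
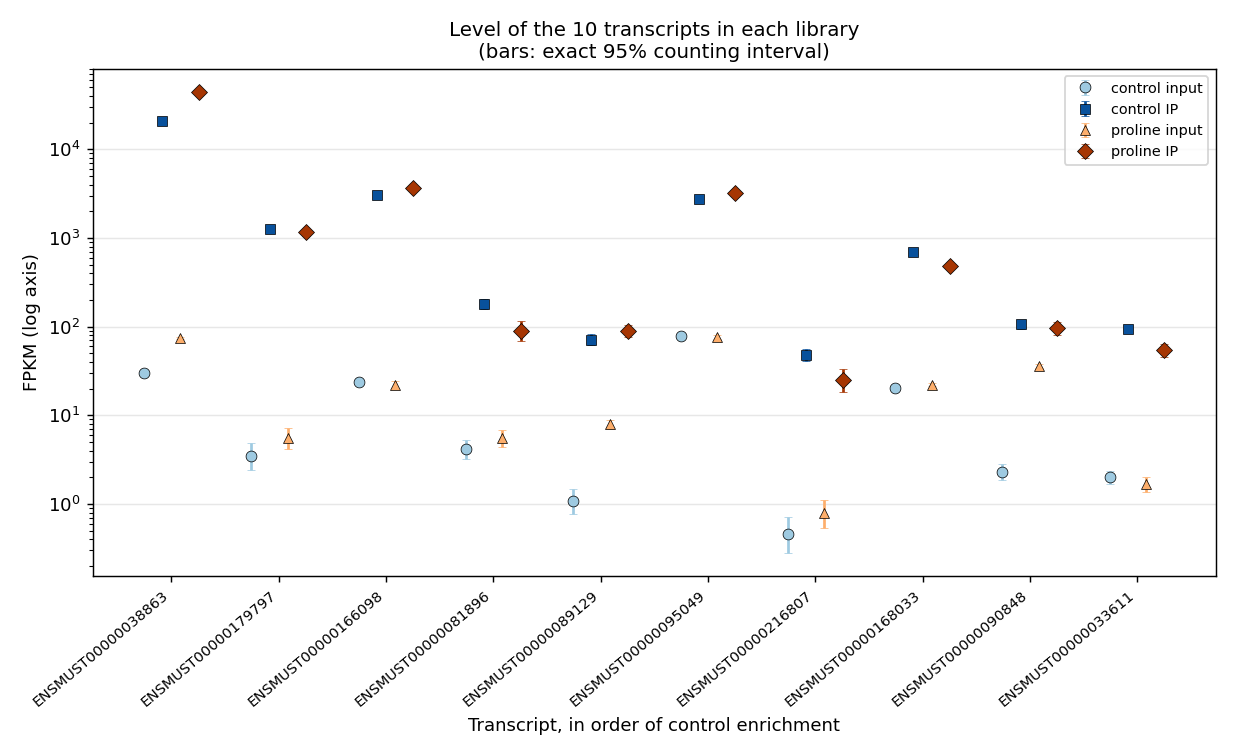
Level in FPKM (log axis) of each of the 10 transcripts in the control input, control IP, proline input and proline IP, in order of control enrichment, with exact 95% counting intervals. Both IP values of every transcript lie above both of its input values; ENSMUST00000090848 has the smallest gap in proline, from an input of 36.3 FPKM to an IP of 95.7 FPKM.

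ENSMUST00000038863, of 3894 nt, stood far above the rest. The control input held 30.2 FPKM of it, the control IP 21030 FPKM, the proline input 74.4 FPKM and the proline IP 44577 FPKM. It was the most abundant listed transcript in both IPs, but ranked 2432 in the control input and 863 in the proline input. Its enrichment was 697-fold in control (95% counting interval 670 to 724) and 599-fold in proline (584 to 615). It took 8.19% of all control IP reads and 17.4% of all proline IP reads, against 0.0118% and 0.0290% of the matching input reads. FPKM is scaled to the library total, of which this RNA is part. With the libraries set to equal FPKM totals that leave out the 10, IP values are multiplied by 1.12 in control and 1.15 in proline, and input values by 0.901 and 0.886, so that each IP over input ratio is larger by both factors.

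ENSMUST00000179797 was the shortest of the 10, at 449 nt, and second in enrichment. The control input held 3.51 FPKM of it, the control IP 1254 FPKM, the proline input 5.56 FPKM and the proline IP 1164 FPKM. It was thus a rare RNA of the lysate, at rank 8958 in the control input, and a common one of the IP, at rank 21 in control and 26 in proline. Its enrichment was 357-fold in control (255 to 515) and 209-fold in proline (157 to 284). The wide intervals come from the inputs, which held 35 reads in control and 52 in proline against 1006 and 499 in the IPs.

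A further 3 transcripts joined a moderate lysate level to a high IP level. ENSMUST00000166098, of 1033 nt, had a control input of 23.9 FPKM, a control IP of 3038 FPKM, a proline input of 22.2 FPKM and a proline IP of 3709.7 FPKM, and ranked 6 in both IPs. ENSMUST00000095049, of 925 nt, had the highest control input of the 10. The level was 79.2 FPKM there, with a control IP of 2788 FPKM, a proline input of 75.7 FPKM and a proline IP of 3259 FPKM, and it ranked 8 in both IPs. ENSMUST00000168033 was the longest, at 8228 nt, and stood at 20.1, 694, 22.3 and 479 FPKM in the same order. For all 3 the inputs of control and proline were close. The IP was higher in proline for the first 2 and lower for the long one.

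The other 5 were scarce in the control lysate, below 5 FPKM, and reached between 47.7 and 180.02 FPKM in the control IP. ENSMUST00000081896, of 715 nt, had a control input of 4.16 FPKM, a control IP of 180.02 FPKM, a proline input of 5.57 FPKM and a proline IP of 89.4 FPKM. ENSMUST00000033611, of 2876 nt, stood at 2.01, 94.8, 1.67 and 54.3 FPKM in that order. In both the IP interval of proline over control lay below 1, while the input interval of proline over control held 1. ENSMUST00000216807, of 1946 nt, was the scarcest of all, at 0.463 FPKM in the control input on 20 reads and 0.790 FPKM in the proline input on 32 reads. Its IP level was 47.7 FPKM in control on 166 reads and 25.3 FPKM in proline on 47 reads. It stood out in the IPs by its ratio rather than by its level, at rank 1017 of the control IP and 2077 of the proline IP.

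The last 2 of these scarce transcripts differed from the rest in the lysate. ENSMUST00000089129, of 1712 nt, had a control input of 1.08 FPKM, a control IP of 71.6 FPKM, a proline input of 7.94 FPKM and a proline IP of 89.9 FPKM. ENSMUST00000090848, of 1719 nt, stood at 2.31, 106, 36.3 and 95.7 FPKM in that order. Both inputs were several-fold higher in proline, while the IP levels of control and proline lay close together.

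**Figure D2:**
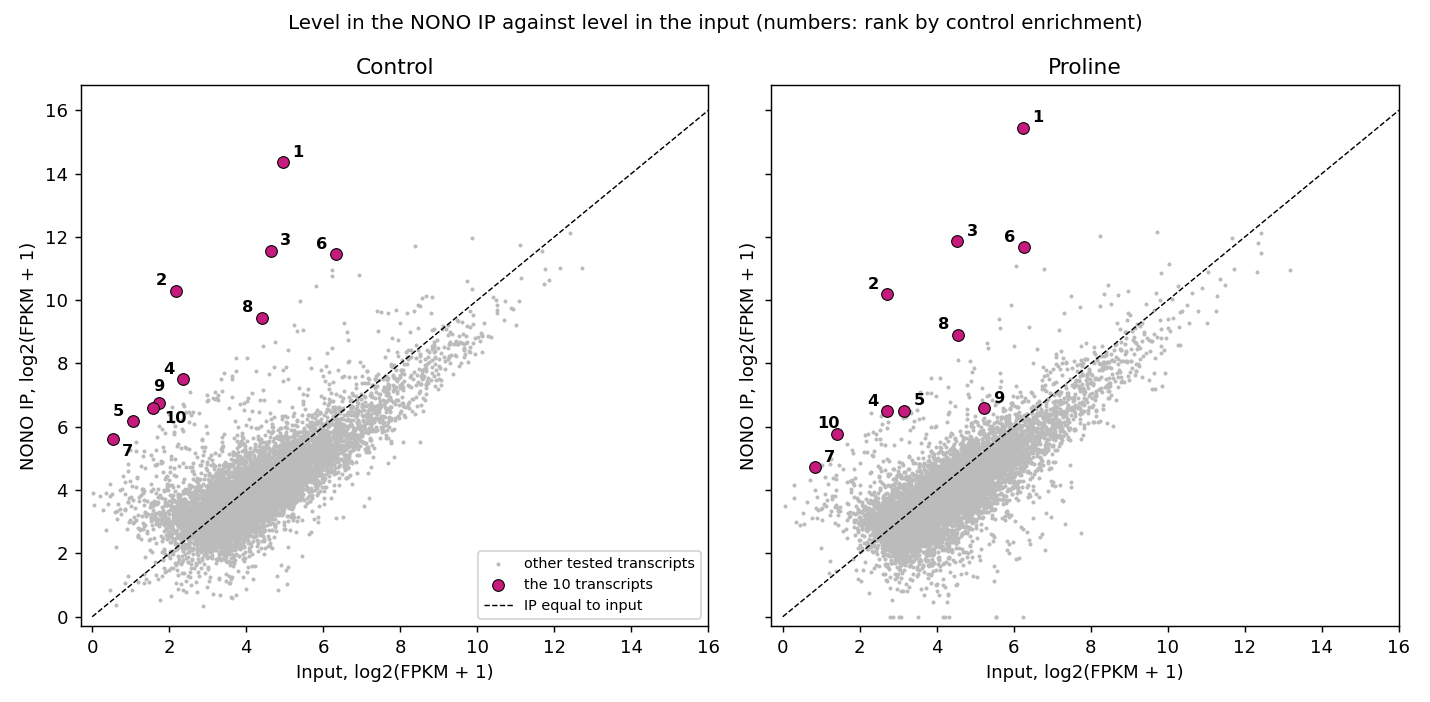
Level in the NONO IP against level in the input, both as log2(FPKM + 1), in control (left) and proline (right); each grey dot is 1 of the other tested transcripts, coloured dots are the 10, numbered by control enrichment, and the dashed line marks equal levels. All 10 lie above the line in both panels, with number 9 (ENSMUST00000090848) nearest to it in proline, at a log2 difference of 1.38.

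In control, the order among the 10 was clear only at the top. On the log2(FPKM + 1) scale the enrichment was 9.40 for ENSMUST00000038863, 8.12 for ENSMUST00000179797 and 6.93 for ENSMUST00000166098. The other 7 lay between 4.99 and 5.13, a span of 0.14. The first transcripts outside the rule were close behind. ENSMUST00000107484, at rank 11, had a difference of 4.74, which is 0.25 below that of rank 10, and ENSMUST00000214948 and ENSMUST00000233892 had 4.63 and 4.60. Ordered by FPKM ratio, the counting intervals of neighbours overlapped from ENSMUST00000168033, at 34.5-fold (33.2 to 35.8), up to ENSMUST00000166098, at 127-fold (116 to 139), and those of the top pair stood apart. Between them lay ENSMUST00000081896 at 43.3-fold (32.8 to 57.8), ENSMUST00000090848 at 46.1-fold (36.4 to 59.1), ENSMUST00000033611 at 47.2-fold (38.8 to 57.9) and ENSMUST00000089129 at 66.3-fold (47.3 to 94.99). Ranked by the plain ratio, 6 of the 10 were among the 10 largest and the lowest, ENSMUST00000168033, was at rank 18. By that ratio ENSMUST00000216807, 103-fold (64.6 to 173), came before ENSMUST00000095049, 35.2-fold (33.3 to 37.3). All 10 exceeded the control input at least 2-fold, as did 8.43% of the tested transcripts, a contrast the rule itself used.

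The rule also shaped which RNAs could appear. Of the 10, 5 had a mean input below 5 FPKM and passed the filter through the IP, a class that makes up 4.24% of the tested transcripts (359 of them). A value of 0 in the control input kept out 13 transcripts whose mean reached 5 FPKM, and 4 of these had a log2 difference above that of rank 10.

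In proline, every one of the 10 was again higher in the IP than in its input. The proline libraries entered the rule only through the filter on mean FPKM. The 5 with a mean input below 5 FPKM could pass that filter only through their IP values. For these 5 the shares of the tested transcripts below are therefore no like background. The filter on a mean input of at least 5 FPKM keeps 5 of the 10, and all 5 were past 2-fold in proline. The share of all transcripts kept by that filter was not counted, so this count stands without a background. All 10 were at least 2-fold higher, against 5.02% of the tested transcripts, and each counting interval excluded 1. The median log2 difference was 4.37 over the 10, with a range of 1.38 to 9.21, and -0.40 over the tested transcripts. An FPKM ratio of at least 10 was found for 9 of the 10. The exception was ENSMUST00000090848, at 2.64-fold (2.22 to 3.12). These 9 include all 5 that passed only through their IP values. Of the 5 that the input filter keeps, ENSMUST00000038863, ENSMUST00000166098, ENSMUST00000095049 and ENSMUST00000168033 reached this ratio. It was also reached by 72 of the 8467 tested, a count that is no like background for the 9.

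The order in proline kept the same 3 transcripts at the top. After ENSMUST00000038863 and ENSMUST00000179797 came ENSMUST00000166098, at 167-fold (152 to 184) against 127-fold in control (116 to 139). The intervals of ENSMUST00000179797 and ENSMUST00000166098 overlapped in proline and did not in control. ENSMUST00000095049 came next, at 43.1-fold (40.4 to 45.9) against 35.2-fold in control. In all, 6 of the 10 were among the 10 largest proline differences of the tested transcripts, with ENSMUST00000033611 at rank 6 and ENSMUST00000168033 at rank 7. The others were ENSMUST00000216807 at rank 13, ENSMUST00000081896 at rank 18, ENSMUST00000089129 at rank 45 and ENSMUST00000090848 at rank 254. Applied to the proline libraries, the same rule would have taken in ENSMUST00000107484, ENSMUST00000117932, ENSMUST00000084548 and ENSMUST00000216261 in their place.

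**Figure D3:**
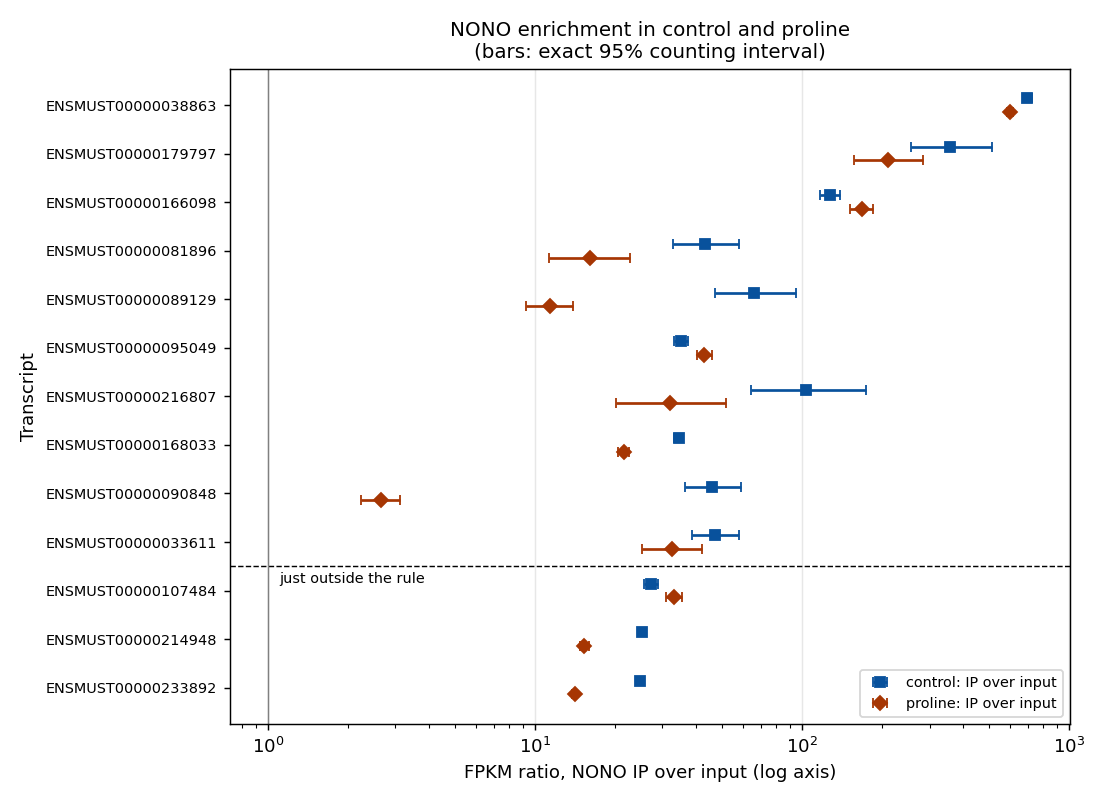
FPKM ratio of NONO IP over input (log axis) in control and in proline for the 10 transcripts and the 3 just outside the rule, with exact 95% counting intervals. The ratio is lower in proline for 8 of the 10 and higher for ENSMUST00000166098 and ENSMUST00000095049. The tested transcripts, not shown, had a median log2 change of -0.11. The widest gap is that of ENSMUST00000090848, 46.1-fold in control and 2.64-fold in proline.

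Enrichment was lower in proline than in control for 8 of the 10 and higher for 2. Most tested transcripts were lower too, their median log2 change being -0.11 with quartiles of -0.51 and 0.26. Because the 10 were taken for their high control values, a smaller value in proline is favoured by the choice itself. When the rule was applied to the proline libraries instead, 4 of the 10 transcripts it returned were smaller in control and the rest were larger there. Of those returned, 6 are among the 10 described here, so the sets overlap and are not independent. Enrichment at least 2-fold lower on the log2(FPKM + 1) scale was found for 4 of the 10 (2 with a pseudocount of 5), against 9.89% of the tested transcripts, and at least 2-fold higher for 0, against 2.98%. The rule used the control side of this contrast, so these counts are given without a reading. The median change was -0.66 for the 10 and -0.11 for the tested transcripts.

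The largest losses of enrichment came with a higher lysate level. The input is itself a term of the enrichment, and the rule favoured a low control input, so no link between them is read. For ENSMUST00000090848 the ratio of proline to control enrichment was 0.0572 (0.0432 to 0.0767), with an input 15.7 times higher in proline (12.7 to 19.7) and an IP ratio of 0.899 (0.738 to 1.09). For ENSMUST00000089129 it was 0.171 (0.117 to 0.254), with an input 7.35 times higher (5.29 to 10.5) and an IP 1.26 times higher (1.01 to 1.56). In these 2 the intervals of the input ratio lay wholly above those of the IP ratio.

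In the other 2 past 2-fold, both the lower IP and the higher input entered the ratio. ENSMUST00000216807 had an enrichment ratio of 0.311 (0.167 to 0.599), an IP ratio of 0.530 (0.375 to 0.736) and an input ratio of 1.70 (0.945 to 3.14). ENSMUST00000081896 had an enrichment ratio of 0.370 (0.243 to 0.572), an IP ratio of 0.496 (0.368 to 0.661) and an input ratio of 1.34 (0.958 to 1.88). In both, the input interval held 1 and the IP interval did not. With all libraries thinned to 954824 reads their inputs fell to at most 6 reads each, and the log2 change of enrichment turned to 0.069 for ENSMUST00000081896 and 0.18 for ENSMUST00000216807. ENSMUST00000090848 and ENSMUST00000089129 had changes of -3.51 and -1.92 there. With a pseudocount of 5 the change was -0.78 for ENSMUST00000089129 and -0.88 for ENSMUST00000216807, and neither was past 2-fold. It was -2.44 for ENSMUST00000089129 with a pseudocount of 0.1.

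For the leading transcript, input and IP were higher in proline together. For ENSMUST00000038863 the proline input was 2.46 times the control input (2.35 to 2.58), and the proline IP was 2.12 times the control IP (2.10 to 2.13). Its enrichment ratio was 0.860 (0.821 to 0.901), an interval below 1. The log2 change of enrichment was -0.19, and -0.084 with differences centred on the median of the tested transcripts. The more abundant pair behind ENSMUST00000038863 went the other way. The enrichment ratio was 1.31 (1.15 to 1.496) for ENSMUST00000166098 and 1.22 (1.12 to 1.33) for ENSMUST00000095049. Their IPs were 1.22 (1.17 to 1.27) and 1.17 (1.12 to 1.22) times higher in proline, and their input ratios, 0.929 (0.820 to 1.052) and 0.955 (0.889 to 1.03), had intervals that held 1.

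The remaining 3 had a lower enrichment in proline that stayed short of 2-fold. The ratio was 0.586 (0.380 to 0.915) for ENSMUST00000179797, 0.623 (0.588 to 0.661) for ENSMUST00000168033 and 0.688 (0.501 to 0.948) for ENSMUST00000033611. For ENSMUST00000168033, the best counted of them, the input ratio was 1.11 (1.06 to 1.16) and the IP ratio 0.690 (0.664 to 0.716). For ENSMUST00000033611 the IP ratio was 0.573 (0.473 to 0.689). For ENSMUST00000179797 the IP ratio was 0.928 (0.832 to 1.03), an interval that held 1. After thinning, its log2 change of enrichment was -1.46, past 2-fold, in place of -0.65, on 1 control and 3 proline input reads.

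**Figure D4:**
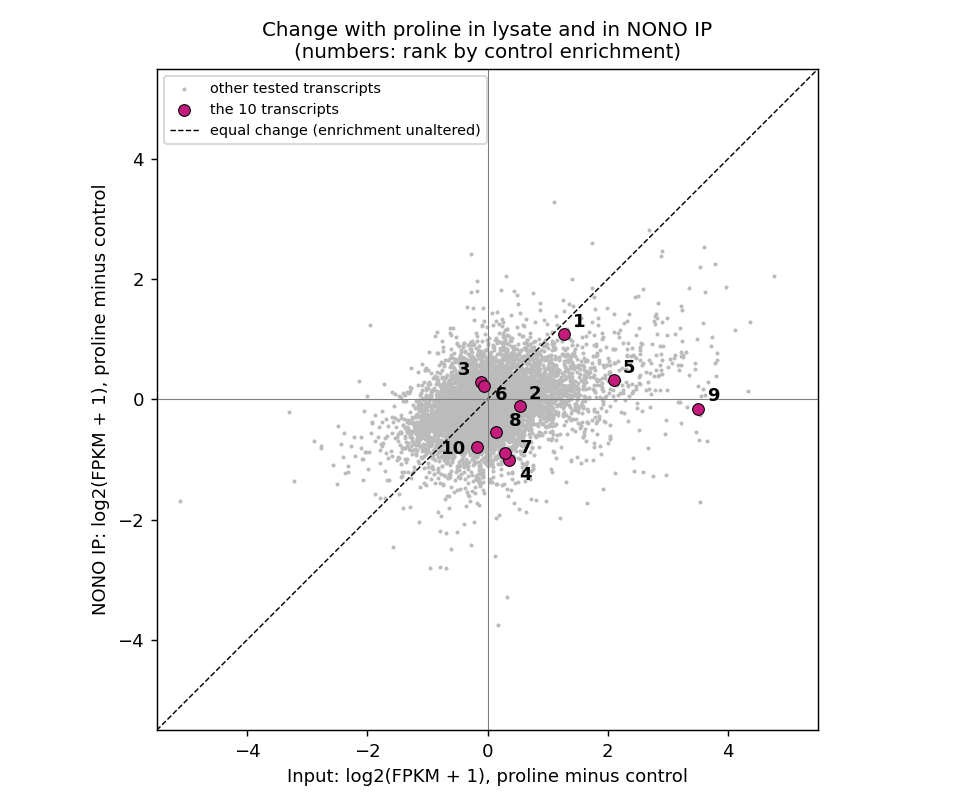
Proline minus control difference in the NONO IP against the same difference in the input, both on the log2(FPKM + 1) scale; grey dots are the other tested transcripts, coloured dots the 10, numbered by control enrichment, and transcripts on the dashed line have equal enrichment in both conditions. Number 1 lies near the line, numbers 3 and 6 above it, and numbers 5 and 9 far to the right, with input differences of 2.10 and 3.49.

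Across the 10, the inputs differed upward more often than downward. Of the 10, 3 (ENSMUST00000038863, ENSMUST00000089129 and ENSMUST00000090848) had a proline input at least 2-fold above control, against 8.57% of the tested transcripts, and 0 were at least 2-fold lower, against 3.86%. In the IPs, 1 was at least 2-fold higher (ENSMUST00000038863), against 1.64%, and 1 at least 2-fold lower (ENSMUST00000081896, with a log2 difference of -1.003, at the threshold), against 3.06%. With centred differences, or equal totals leaving out the 10, 0 were lower there. Over the 10 the median log2 difference was 0.32 in the inputs and -0.13 in the IPs, where the tested transcripts had -0.05 and -0.13. Control libraries stand on one side of these contrasts and chose the 10, so a low control input and a high control IP were favoured. Fewer cells of a type and less RNA per cell cannot be told apart in these bulk lysates.

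Scaling moved the split of calls among the tested transcripts. Among all tested transcripts called in either direction, the share called higher in the control IP over input was 32.5% on the deposited FPKM, 47.0% after setting the FPKM totals equal, 58.7% with equal totals leaving out the 10, and 59.5% with differences centred on their median. For proline IP over input these shares were 19.5%, 28.6%, 47.1% and 51.9%. For proline IP over control IP they were 34.9%, 28.8%, 40.2% and 55.6%, and for the change in enrichment 23.1%, 21.2%, 29.2% and 33.8%. Centring moves the median of all tested transcripts by up to 0.40 on the log2 scale. The 10 enrichments stayed at a difference of at least 1 in both conditions under each of these scalings.

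Length, which the rule did not rank on, varied widely among the 10. Their lengths ran from 449 to 8228 nt with a median of 1716 nt, and 7 were shorter than the tested median of 2804 nt and 6 shorter than the first quartile of 1736 nt. These lengths come from the recovered reads and are those of the listed transcripts, with no record of exons or coding parts. As the rule favours a low control input and a high control IP, the levels in control are a description. In the control lysate 6 of the 10 stood below the tested median of 16.4 FPKM, and 0 were among the 100 most abundant listed transcripts. In each IP 5 were among the 100 most abundant.

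The change in enrichment is given here by control input level, a value that the rule used and that is itself a term of the change. The 4 transcripts at 20 FPKM or more in the control input had log2 changes between -0.67 and 0.39, with a median of 0.050, on 548 to 3678 control input reads. The 6 below 5 FPKM had changes between -3.65 and -0.62, with a median of -1.27, on 20 to 128 such reads. A low control input by itself favours a lower change, so no difference between these classes is read from the values. After thinning to 954824 reads the ranges were -0.63 to 0.32 and -3.51 to 0.18, and the second covered most of the first. That was a single random draw. In it ENSMUST00000216807 kept 2 control and 0 proline input reads, and ENSMUST00000081896 kept 6 and 3, so the overlap is not read either.

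The transcripts most like the 10 in profile were mostly those just outside the rule. The profile holds the control contrast that the rule ranked on, so this nearness was favoured by the choice. Likeness was taken as the Euclidean distance over the 4 libraries between a transcript's log2(FPKM + 1) values, centred on their own mean, and the median centred profile of the 10. The nearest were ENSMUST00000107484 at 0.715, ENSMUST00000214948 at 0.866, ENSMUST00000216261 at 0.894, ENSMUST00000233892 at 0.916 and ENSMUST00000084548 at 0.980. The distances of the 10 themselves ran from 0.488 for ENSMUST00000168033 to 4.42 for ENSMUST00000038863. ENSMUST00000089129 at 1.52, ENSMUST00000166098 at 2.19, ENSMUST00000179797 at 2.75 and ENSMUST00000090848 at 2.82 also lay farther off than those nearest transcripts. ENSMUST00000107484, of 927 nt, had a control input of 73.6 FPKM, a control IP of 1998 FPKM, a proline input of 65.7 FPKM and a proline IP of 2178 FPKM. Like ENSMUST00000166098 and ENSMUST00000095049, it was more enriched in proline, with a ratio of 1.22 (1.11 to 1.34). ENSMUST00000233892, the longest of those named at 21388 nt, stood at 40.9, 1014, 47.7 and 672 FPKM in the same order and took 2.17% of control IP reads, more than any of the 10 except ENSMUST00000038863.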

How the data were processed

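RIP-seq libraries of control and proline-treated mouse hepatocytes, 1 input and 1 NONO IP each, were analysed. The authors deposited 1 FPKM value per Ensembl transcript and library. Per the submitters' processing notes the genome build was named as GRCm38 and as mm10. For the aligner, the counter and the annotation release: not given in the sources used here.

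FPKM was used as deposited. Each library's total was taken as the largest number for which the lowest values, read as 1 read each, give whole transcript lengths. The smallest whole length with whole reads in all libraries was then found for 20229 of 20230 transcripts above 0. Where length and reads share a factor, reads can be too few. These steps were tested on data simulated from the recovered lengths and reads, so lengths too short by a shared factor would not show. Whether a read is a single read or a fragment is not given. A total count of 954824 to 22188003 reads lay behind each library.

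Differences of log2(FPKM + 1) were called at 1 or more (2-fold). Ratios of 2 libraries have exact Clopper-Pearson 95% intervals. The change in enrichment has a normal interval on the log ratio, with 0.5 added to reads. No test was possible with 1 library per group. The transcripts and lists were chosen with earlier results of these data known. Named transcripts were the 10 members, ranks 11 to 13, and the 5 nearest profiles, to which 1 transcript returned by the rule in proline (ENSMUST00000117932) was added after its values were seen. Alternatives changed the pseudocount, scaling, filter, depth and fold. Python 3.11.15, numpy 2.4.6, pandas 2.3.3 and scipy 1.17.1 were used.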

Additional observations from a re-analysis of the deposited data

How the results depend on the processing

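No paired analysis was possible because each group holds 1 library. Each of the 9 alternatives was run once on every count of the 10 transcripts. Those past 2-fold over their input numbered 10 in control and in proline under every alternative but 2. At a fold of 4 they were 10 and 9, without ENSMUST00000090848. The filter on a mean input of at least 5 FPKM keeps 5 of the 10. These 5 were past 2-fold in both, with no share of all kept transcripts counted beside them. That filter also gave 1 lower enrichment in proline in place of 4 and 0 lower in the proline IP in place of 1. Lower enrichments numbered 2 with a pseudocount of 5, 3 after thinning and 1 at a fold of 4. Between 4 and 7 of the 10 were among the 10 largest proline enrichments, against 6 as reported. The single transcript lower in the proline IP, at the threshold, gave 0 with a pseudocount of 5, with centred differences, with equal totals leaving out the 10, after thinning and at a fold of 4. The single one higher there gave 0 at a fold of 4. Those higher in the proline input numbered 4 after thinning, ENSMUST00000179797 included at 1.26 in place of 0.54, and 2 at a fold of 4 and under the mean-input filter, in place of 3. After thinning, 1 was lower there in place of 0. That transcript, ENSMUST00000216807, kept 2 control and 0 proline input reads. Thinning turned the change in enrichment from -1.35 to 0.069 for ENSMUST00000081896 and from -1.18 to 0.18 for ENSMUST00000216807. Of 300 single values recomputed, 201 moved by less than their counting interval. The input reads limit the scarce transcripts.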
